A study of Mus musculus with 36 samples.

Results

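RNA levels of 10 genes of the epidermal permeability barrier were followed in cultured mouse keratinocytes with and without plakophilin 4, an armadillo-repeat protein of adherens junctions. The genes were taken by symbol from the table of read counts and encode 3 transglutaminases (Tgm1, Tgm3 and Tgm5), 2 epidermal lipoxygenases (Alox12b and Aloxe3), 4 proteins of ceramide and fatty acid supply (Abca12, Cers3, Elovl4 and Ugcg) and a protease (Asprv1). They are 10 of the 55358 genes in the table, and all 10 were among the 15114 genes with enough reads to be tested. The study compared WT cells with PKP4-KO cells and with PKP4-KO cells that overexpress GFP-PKP4 (Rescue), all of them cultured for 24 h or 72 h, in low calcium medium (LCM) or in the same medium with calcium chloride added (HCM), which induces junction formation and differentiation in culture. The sample titles carry the code LD for the groups given here as 24 h and HD for those given as 72 h. The titles do not say what else these codes may stand for. WT and PKP4-KO cells were primary keratinocytes isolated from newborn pups, Pkp4+/+ and Pkp4-/- respectively, so that genotype cannot be told apart from the isolate. The Pkp4 allele lacks a critical exon and was backcrossed to C57BL/6J. The Rescue cells are a line made from PKP4-KO cells by lentiviral transduction of human PKP4 tagged with EGFP and selection with puromycin, so that re-expression cannot be told apart from transduction and selection. The series lists 3 biological replicates in each of the 12 groups, and no source says whether they came from separate pups, so the p-values measure only the spread between these libraries.

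The outermost layer of the epidermis holds back water through a cornified envelope and the lipids around it. Transglutaminases cross-link envelope proteins, while ceramides with ultra-long acyl chains are built by elongases and ceramide synthases, glucosylated, loaded into lamellar bodies, secreted, oxidised by lipoxygenases and bound to the envelope. Loss of function in many of these genes causes ichthyosis or a lethal barrier defect at birth, and in cultured keratinocytes a rise in calcium is the usual trigger of terminal differentiation.

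The libraries held 13602728 to 22467187 counts, with a median of 17353519.5, at which 3 counts correspond to 0.173 CPM, the unit of all levels here, which are counts scaled to a common library size with the composition factors given below. Pkp4 itself had 326 to 1443 counts in the 12 WT libraries, 44 to 232 in PKP4-KO and 101 to 273 in Rescue, and PKP4-KO means were 12.6% to 27.5% of WT in the 4 culture conditions. In each condition the PKP4-KO and WT libraries did not overlap (exact permutation test, two-sided, p = 0.1, the smallest p that 3 against 3 allows). The added GFP-PKP4 sequence had 1902 to 15325 counts in Rescue libraries and at most 113 elsewhere. All 8 keratinocyte markers were present in every group, with a summed level of 23269 to 72920 CPM per library and Krt14 in the lead. Single members of this list differed between the cell lines. Krt15 had a mean of 650 CPM in PKP4-KO and 41.9 in WT at 24 h HCM, and 1069 and 125 at 72 h HCM. Itga6 had 115 and 157 CPM at 24 h HCM, and 29.0 and 106 at 72 h HCM. The summed level was at most 11.5 CPM for 7 fibroblast markers, 2.0 for 5 melanocyte markers and 5.2 for 3 endothelial markers. The immune list summed to at most 178 CPM, nearly all of it Cd68, and Cd207, which defines Langerhans cells, was listed at 0 in every group. A list of 6 sebocyte markers, led by Plin2 or Mgst1, summed to 53.4 to 118 CPM in WT libraries, 102 to 204 in Rescue and 143 to 282 in PKP4-KO, with Awat1 at 0 in all groups but WT at 24 h HCM. The scaling factors for composition (TMM) were 0.481 to 0.546 in the PKP4-KO 72 h HCM libraries and 0.705 to 1.39 in all others.

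On GRCm39, the build of the deposited counts, the 10 genes lie on 8 chromosomes. Tgm3 (ENSMUSG00000027401, chromosome 2, 129854257 to 129892319, forward strand) and Tgm5 (ENSMUSG00000053675, chromosome 2, 120876592 to 120916322, reverse strand) share a chromosome with Pkp4. Alox12b (ENSMUSG00000032807, chromosome 11, 69041472 to 69060618) and Aloxe3 (ENSMUSG00000020892, chromosome 11, 69016722 to 69039941) are neighbours on the forward strand. Tgm1 (ENSMUSG00000022218) lies on chromosome 14 from 55937466 to 55951383 on the reverse strand and overlaps an antisense transcript, Gm49067, which had 48 counts in all 36 libraries together. The strand setting of the counting is not given in the sources used here. Abca12 (ENSMUSG00000050296) has 53 exons over 172.6 kb of chromosome 1, and the other genes are Cers3 on chromosome 7, Elovl4 on chromosome 9, Ugcg on chromosome 4 and Asprv1 on chromosome 6, the last with a single exon in its canonical transcript. In PKP4-KO against WT, the median log2 fold change of the other tested genes within 5 Mb of a member lay between -0.56 and 0.54 over the 10 genes and 4 conditions.

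The promoters of the 4 genes whose RNA was higher in PKP4-KO than in WT at 72 h HCM are shown, as these are the members called higher at that time. Each is the run of 250 bases before the start annotated by RefSeq (GRCm38.p6), 5' to 3' on the gene's strand, and each was found once in GRCm39, at chr14:55950950-55951199 (reverse) for Tgm1, where RefSeq annotates a start further downstream as well, chr2:129854010-129854259 (forward) for Tgm3, chr2:120916323-120916572 (reverse) for Tgm5 and chr11:69047648-69047897 (forward) for Alox12b. Capitals mark a GC box (GGGCGG on either strand) or a TATA box (TATAAA on either strand).
Tgm1: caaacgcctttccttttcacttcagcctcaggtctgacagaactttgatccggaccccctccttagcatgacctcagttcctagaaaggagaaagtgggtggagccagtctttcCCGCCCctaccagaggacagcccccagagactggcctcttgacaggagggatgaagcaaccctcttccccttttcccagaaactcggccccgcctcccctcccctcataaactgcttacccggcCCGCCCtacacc
Tgm3: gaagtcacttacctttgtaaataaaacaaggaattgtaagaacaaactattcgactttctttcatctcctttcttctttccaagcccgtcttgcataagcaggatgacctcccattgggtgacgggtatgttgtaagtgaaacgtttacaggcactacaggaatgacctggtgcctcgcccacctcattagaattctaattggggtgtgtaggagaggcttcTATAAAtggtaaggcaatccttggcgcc
Tgm5: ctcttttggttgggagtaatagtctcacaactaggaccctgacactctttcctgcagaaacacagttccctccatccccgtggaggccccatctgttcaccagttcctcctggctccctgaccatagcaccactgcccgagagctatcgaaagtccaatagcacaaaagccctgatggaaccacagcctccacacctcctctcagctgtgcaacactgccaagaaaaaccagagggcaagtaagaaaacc
Alox12b: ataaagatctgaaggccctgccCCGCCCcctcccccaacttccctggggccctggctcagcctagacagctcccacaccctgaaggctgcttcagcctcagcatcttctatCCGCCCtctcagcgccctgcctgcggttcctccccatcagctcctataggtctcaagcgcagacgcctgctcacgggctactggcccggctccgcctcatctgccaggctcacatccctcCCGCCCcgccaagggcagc
The promoter of Tgm3 held a TATA box beginning 28 bases before the start, a motif found in 12.4% of the 32851 promoters of this length. Tgm1 held 2 GC boxes and Alox12b held 3, and the share of all promoters with a GC box was 32.7%. The windows of Tgm1 and Alox12b lie within the gene spans given above, and those of Asprv1 and Ugcg lie within their genes as well. That of Elovl4 lies partly within its gene. For these genes the RefSeq start is downstream of the outermost annotated start. The bases before that outer start were not searched, or for Elovl4 only in part. No match to an AP-1 site (TGANTCA, both strands) or a grainyhead-like site (AACCNGGTT, both strands) lay in the 10 promoters found for 9 of the genes, against 6.7% and 0.2% of all promoters, and these letters were searched in this window only. Outside these 4 genes, GC boxes were found for Asprv1, Elovl4 and Ugcg, and none of the motifs for Abca12 and Cers3. Aloxe3 was not among the promoters used.

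Compared per kilobase of transcript, the mean level over the 36 libraries was highest for Asprv1 at 477 CPM per kb. Tgm3 followed at 68.7, Tgm1 at 48.0, Elovl4 at 31.7 and Cers3 at 24.4 CPM per kb. The lowest were Aloxe3 at 5.82, Ugcg at 4.34 and Abca12 at 2.72 CPM per kb. All 10 genes were expressed in every library, the lowest count being 31 for Alox12b. The group with the lowest mean was PKP4-KO at 24 h for all 10, in LCM or HCM. The ratio of the highest to the lowest group mean ran from 6.34 for Cers3 to 67.7 for Asprv1 and was 65.2 for Alox12b, 45.4 for Tgm1 and 10.9 for Abca12. In the order of the 12 group means of Tgm1, 5 of the 11 neighbouring pairs of groups overlapped in their libraries, and in that of Abca12 9 of 11.

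**Figure D1:**
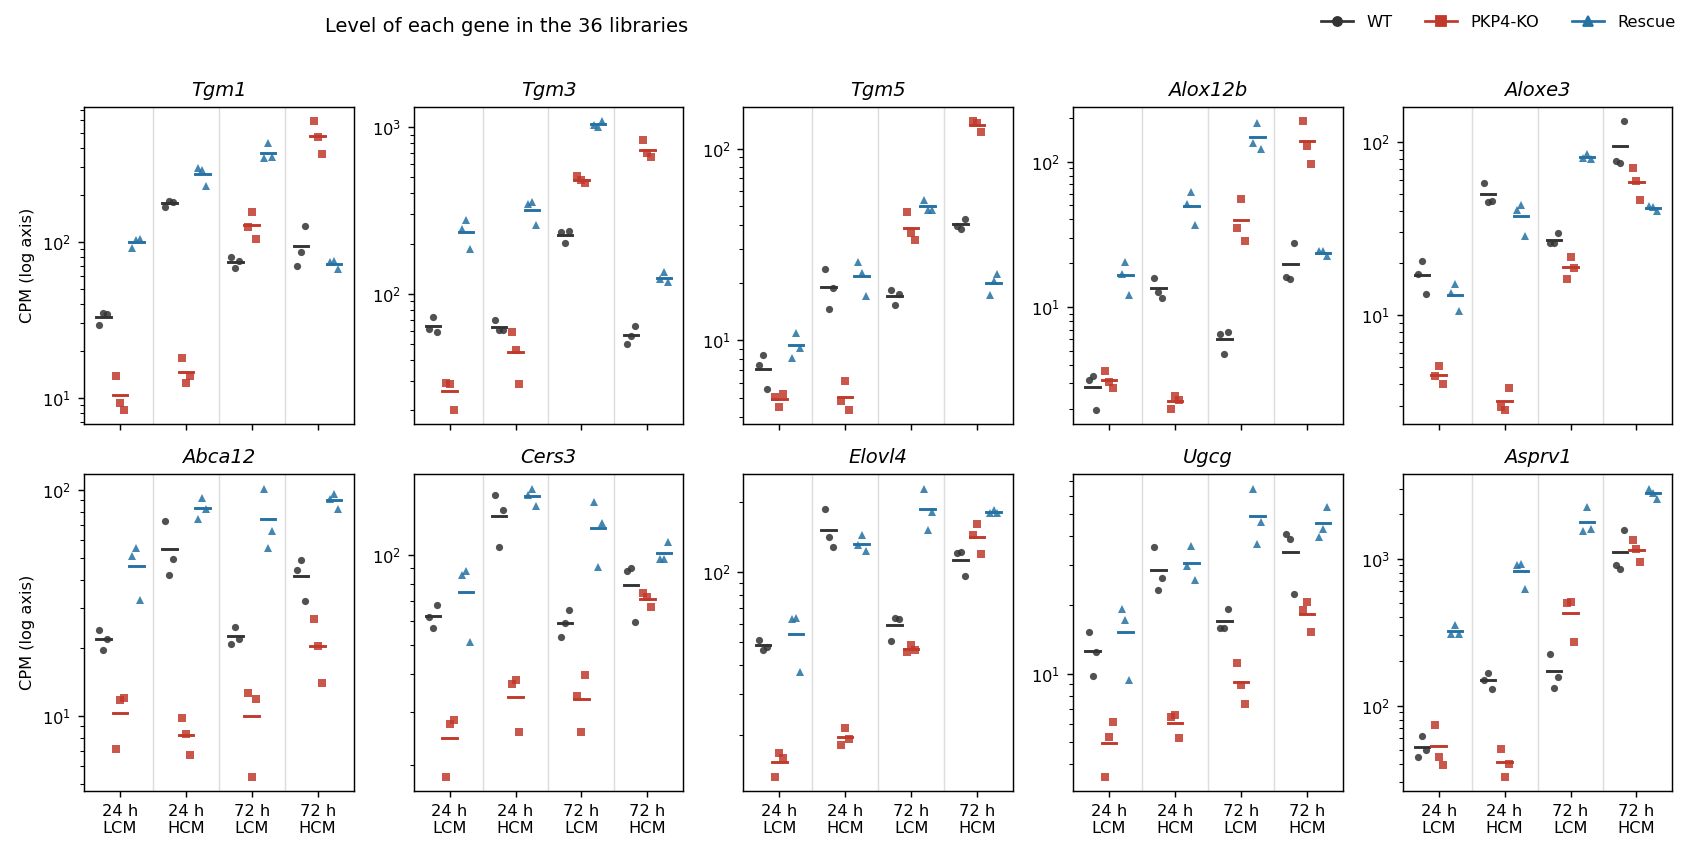
Level of each of the 10 genes in the 36 libraries, in CPM on a log axis, by time and medium. Points are libraries, bars are means of 3 libraries, and colours and shapes mark WT, PKP4-KO and Rescue. The PKP4-KO points lie lowest at 24 h HCM in all 10 panels, and at 72 h HCM they lie highest for Tgm1, Tgm3, Tgm5 and Alox12b.

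To see how the barrier genes stood in cells with and without PKP4 early after the calcium switch, PKP4-KO and WT cells were compared at 24 h HCM. All 10 genes were lower in PKP4-KO, by -0.51 (Tgm3) to -3.97 (Aloxe3) on the log2 scale, and without TMM factors 9 were called, Tgm3 not passing the test (-0.44, adjusted p = 0.121, edgeR). Over all tested genes 42.8% were called at an adjusted p below 0.05, 22.2% of all were called lower, and the median log2 fold change was -2.40 for the 10 genes and -0.00 for all. Without TMM factors 5742 of all 15114 genes were called, 3050 of them higher. The libraries of the 2 groups did not overlap for any of the 10, a separation that 46.7% of all tested genes showed. The same comparison at 72 h HCM gave a split: Tgm1, Tgm3, Tgm5 and Alox12b were higher in PKP4-KO, Aloxe3, Abca12 and Ugcg were lower, and Cers3, Elovl4 and Asprv1 did not pass the test, against 21.9% of all genes higher and 29.9% lower. Without TMM factors, which moved the median of all genes in this comparison from -0.07 to -0.83, the 4 higher genes were still called higher, and Cers3 (-0.96, adjusted p = 0.00985) and Asprv1 (-0.66, adjusted p = 0.00518) were called lower by edgeR's quasi-likelihood test.

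The difference between the 72 h and the 24 h result was tested directly, as the change of the PKP4-KO against WT log2 fold change from 24 h to 72 h in HCM. It was positive and passed the test for 10 of 10 genes, with a median of 3.28 against -0.07 for all genes and 10.8% of all genes called in that direction. The largest was that of Tgm1 at 5.93 ± 0.30 (SE), followed by Alox12b at 5.38 ± 0.41 and Tgm3 at 4.21 ± 0.28, and the smallest were Ugcg at 1.32 ± 0.37 and Abca12 at 1.68 ± 0.40. Without TMM factors the values of Abca12 (0.84), Cers3 (0.98) and Ugcg (0.45) stayed positive but did not pass the test. This contrast was added after the values had been seen. In LCM the same change was called higher for 7 genes, with 3.43% of all genes called higher, and for 6 without TMM factors, Elovl4 (1.16) not passing the test. Without these factors 625 of all 15114 genes were called, 359 of them higher. The summed RNA of suprabasal keratinocyte markers was also highest in the PKP4-KO libraries at 72 h HCM. The summed level of 7 such genes was 23104 to 24916 CPM there, 4034 to 10956 in WT and 3352 to 3741 in Rescue at 72 h HCM, and 869 to 2544 in PKP4-KO against 1369 to 4103 in WT at 24 h HCM. Within the sum at 24 h HCM, Krt1 (110 against 6.81 CPM) and Krt10 (109 against 51.0 CPM) had higher means in PKP4-KO than in WT. The means of Krtdap, Sbsn, Ivl, Dsg1a and Dsc1 were lower in PKP4-KO at that time. Krtdap made up most of the sum in PKP4-KO at 72 h HCM, with a mean of 12974 CPM against 3576 in WT, and Krt10, Krt1, Sbsn and Dsc1 had higher means there than in WT, but Ivl (20.3 against 144 CPM) and Dsg1a (48.9 against 74.4 CPM) had lower ones. These means depend on the TMM factors. As unscaled counts per library, Sbsn had 17534 to 22222 in PKP4-KO and 24690 to 32475 in WT at 72 h HCM. Dsc1 had 224 to 521 and 104 to 651, whereas Krtdap, Krt10 and Krt1 had more counts in every PKP4-KO library than in any WT library. The part of these markers in the result was not tested, and in these bulk libraries fewer cells of a type cannot be told apart from less RNA per cell.

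**Figure D2:**
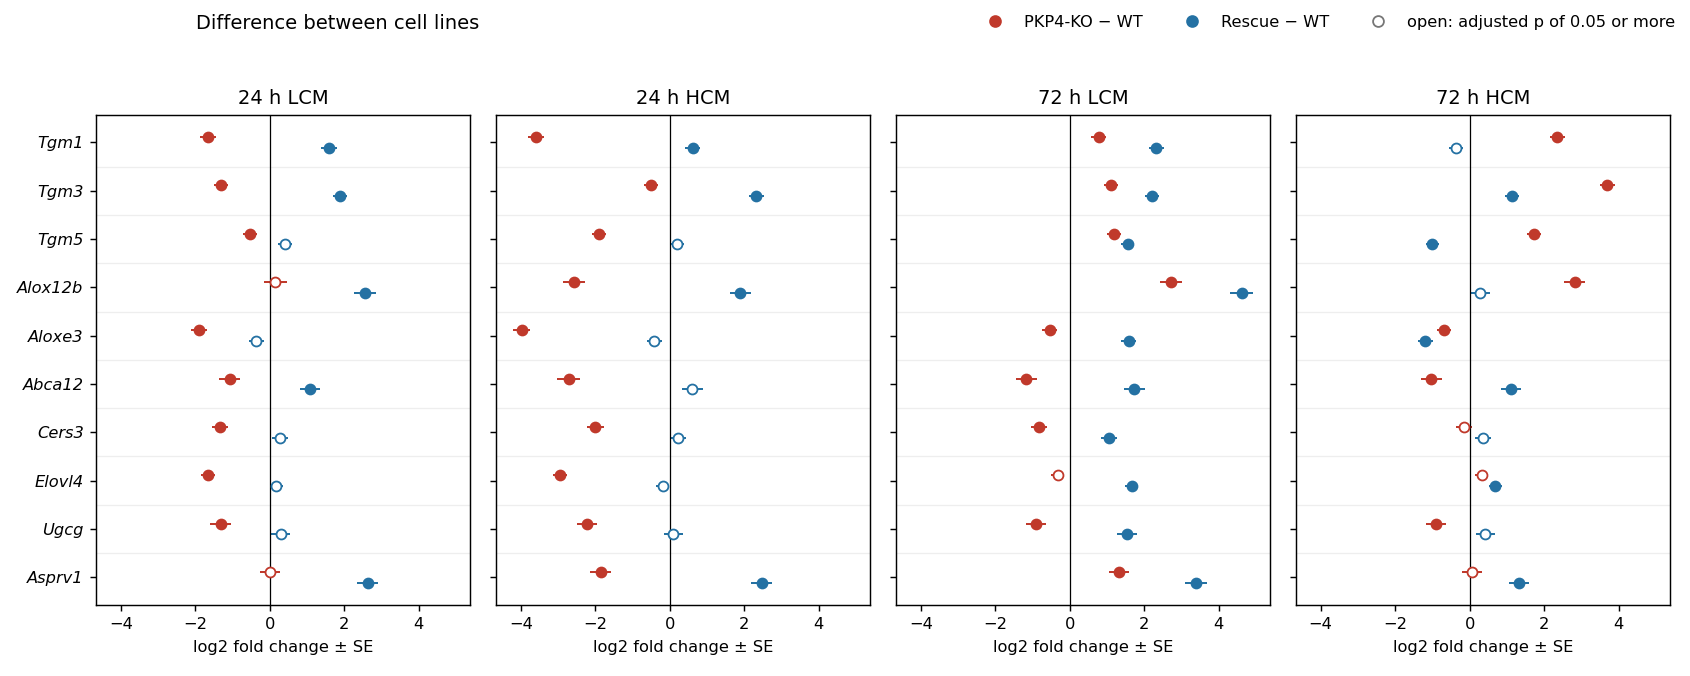
Log2 fold change of the 10 genes in PKP4-KO (red) and Rescue (blue) against WT in the 4 culture conditions, with the standard error of the fit as bars. Filled points passed an adjusted p of 0.05. At 24 h HCM all red points lie left of 0, and at 72 h HCM those of Tgm1, Tgm3, Tgm5 and Alox12b lie right of it.

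Among the transglutaminases, Tgm1, the membrane-bound enzyme whose loss causes lamellar ichthyosis, had 167, 184 and 180.0 CPM in the 3 WT libraries at 24 h HCM and 18.0, 12.4 and 13.7 CPM in PKP4-KO. This is 12-fold lower, a log2 fold change of -3.59 ± 0.22 (SE, adjusted p = 1.47e-13, quasi-likelihood test of edgeR adjusted by Benjamini-Hochberg). By 72 h HCM the same gene had 69.6, 85.4 and 126 CPM in WT and 592, 471 and 365 CPM in PKP4-KO, where every PKP4-KO library lay above every WT library. The log2 fold change was 2.35 ± 0.21 (adjusted p = 3.54e-10, edgeR), and 1.62 without TMM factors. The LCM means were 32.9 ± 3.13 CPM (SD, n = 3) in WT and 10.5 ± 2.87 in PKP4-KO at 24 h, and 74.4 ± 6.0 and 128 ± 25.4 at 72 h, so that the order of the cell lines was reversed with time in LCM as well.

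Tgm3, the epidermal enzyme that acts in the upper layers and the hair follicle, had 69.3, 60.6 and 60.7 CPM in WT and 58.6, 46.2 and 28.6 CPM in PKP4-KO at 24 h HCM, a narrow gap. Its log2 fold change of -0.51 ± 0.19 (SE) had an adjusted p of 0.0282 by edgeR's test, and the call was lost without PKP4-KO replicate 3 (-0.28) or WT replicate 1 (-0.45). At 72 h HCM it had 50.0, 55.8 and 63.6 CPM in WT and 831, 696 and 664 CPM in PKP4-KO. The difference of 3.69 ± 0.21, or 12.9-fold, was the largest rise among the 10 genes at that time and was 2.94 without TMM factors. In LCM the log2 fold change was -1.31 ± 0.19 at 24 h and 1.1 ± 0.19 at 72 h, both past the threshold.

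Tgm5, whose loss in humans causes skin peeling, had 23.6, 14.5 and 18.8 CPM in WT and 4.80, 6.11 and 4.36 CPM in PKP4-KO at 24 h HCM (-1.89 ± 0.19, SE). The levels at 72 h HCM were 39.4, 38.3 and 43.0 CPM in WT and 139, 135 and 123 CPM in PKP4-KO (1.72 ± 0.18). The groups were separate at each time, with PKP4-KO below at 24 h and above at 72 h. In LCM the log2 fold change was -0.52 ± 0.19 at 24 h and 1.18 ± 0.18 at 72 h. The LCM call at 24 h was lost without PKP4-KO replicate 1 (-0.54) or 2 (-0.46) or WT replicate 1 (-0.49) or 2 (-0.40).

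Of the lipoxygenases, Alox12b, the 12R-lipoxygenase that starts the oxidation of linoleate in acylceramides, followed the transglutaminases. It had 15.9, 12.8 and 11.6 CPM in WT and 2.00, 2.47 and 2.29 CPM in PKP4-KO at 24 h HCM, 5.94-fold lower. At 72 h HCM it had 16.0, 15.6 and 27.5 CPM in WT and 189, 128 and 96.4 CPM in PKP4-KO, 7.03-fold higher. The log2 fold changes were -2.57 ± 0.30 and 2.81 ± 0.28 (SE), and the groups were separate at each time. In LCM the gene was at 2.84 ± 0.758 CPM in WT and 3.16 ± 0.460 in PKP4-KO at 24 h (SD, n = 3), a difference that did not pass the test (log2 fold change 0.15, 95% interval -0.48 to 0.78), and at 6.03 ± 1.11 and 39.6 ± 14.3 CPM at 72 h.

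Aloxe3, which acts on the hydroperoxide made by the Alox12b enzyme, did not share this rise above WT. At 24 h HCM it had 58.0, 45.1 and 45.8 CPM in WT and 2.94, 2.84 and 3.77 CPM in PKP4-KO, the largest fall among the 10 genes (-3.97 ± 0.23, SE, 15.7-fold lower). At 72 h HCM it had 77.8, 75.0 and 131 CPM in WT and 70.9, 59.2 and 45.9 CPM in PKP4-KO. This smaller difference of -0.69 ± 0.20 (adjusted p = 0.00482, edgeR) was not called without WT replicate 3 (-0.39), the library with the highest level. In LCM the log2 fold change was -1.91 ± 0.21 at 24 h and -0.54 ± 0.20 at 72 h, the latter not called without PKP4-KO replicate 1 (-0.44) or 3 (-0.53) or WT replicate 3 (-0.48). The 2 neighbouring genes thus differed in sign at 72 h in each medium.

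Abca12, the transporter that loads glucosylceramides into lamellar bodies and is lost in harlequin ichthyosis, was lower in PKP4-KO in all 4 conditions. It had 72.6, 41.8 and 49.4 CPM in WT and 9.74, 8.33 and 6.72 CPM in PKP4-KO at 24 h HCM (-2.72 ± 0.30, SE), and 44.1, 48.7 and 32.3 and 26.8, 20.4 and 14.0 CPM at 72 h HCM (-1.04 ± 0.28). No WT and PKP4-KO library overlapped at either time in HCM. The LCM differences were -1.08 ± 0.28 at 24 h and -1.17 ± 0.28 at 72 h.

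Ugcg, the glucosylceramide synthase, was likewise lower in all 4 conditions. The levels at 24 h HCM were 36, 23.4 and 26.2 CPM in WT and 6.43, 6.57 and 5.24 CPM in PKP4-KO (-2.22 ± 0.27, SE), and at 72 h HCM 41.1, 38.8 and 22.3 and 19.1, 20.6 and 15.2 CPM (-0.90 ± 0.26). The 72 h groups lay close together, the lowest WT library being replicate 3. In LCM the log2 fold change was -1.32 ± 0.27 at 24 h and -0.90 ± 0.27 at 72 h.

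Cers3, the ceramide synthase for ultra-long acyl chains, had 157, 106 and 141 CPM in WT and 37.1, 38.4 and 25.7 CPM in PKP4-KO at 24 h HCM (-2.0 ± 0.22, SE). At 72 h HCM the libraries overlapped, at 88.3, 90.0 and 59.9 CPM in WT and 74.3, 72.2 and 67.0 CPM in PKP4-KO, and the log2 fold change of -0.16 had a 95% interval of -0.60 to 0.29. Elovl4, the elongase that supplies these chains, had 186, 141 and 128 CPM in WT and 18.1, 21.5 and 19.3 CPM in PKP4-KO at 24 h HCM (-2.95 ± 0.19). Its 72 h HCM levels were 121, 122 and 95.8 and 143, 161 and 119 CPM, a log2 fold change of 0.32 with an interval of -0.03 to 0.68. In LCM, Cers3 was lower in PKP4-KO at each time (-1.34 ± 0.22 and -0.84 ± 0.22), whereas Elovl4 was lower at 24 h (-1.66 ± 0.18) and did not pass the test at 72 h (-0.33 ± 0.17).

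Asprv1 encodes the retroviral-like protease that cleaves profilaggrin. At 24 h HCM it had 150.2, 166 and 130.1 CPM in WT and 50.4, 32.6 and 40.1 CPM in PKP4-KO (-1.86 ± 0.28, SE). The 72 h HCM levels, 904, 848 and 1575 CPM in WT and 1329, 1167 and 946 CPM in PKP4-KO, overlapped, and the log2 fold change of 0.05 had a 95% interval of -0.50 to 0.60. The LCM means were 52.3 ± 8.94 CPM in WT and 52.7 ± 18.4 in PKP4-KO at 24 h, and 171 ± 48.5 and 425 ± 135 at 72 h (SD, n = 3), the later difference being 1.31 ± 0.27 on the log2 scale. Over the 10 genes in LCM, 0 were higher and 8 lower in PKP4-KO at 24 h (19.7% and 20.6% of all genes), and 5 were higher and 4 lower at 72 h (21.3% and 23.8%), with Elovl4 a further lower gene without TMM factors (-0.73).

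The Rescue cells were compared with PKP4-KO and with WT cells to see how the genes stood once GFP-PKP4 was expressed. At 24 h HCM all 10 genes were higher in Rescue than in PKP4-KO, by 2.09 (Tgm5) to 4.46 (Alox12b) on the log2 scale, with 21.7% of all genes called higher, and at 24 h LCM again 10 of 10, with 18.2% of all. These comparisons share the PKP4-KO libraries with those against WT. Against WT at 24 h HCM, 4 genes were higher in Rescue, Tgm1, Tgm3, Alox12b and Asprv1, and the other 6 did not pass the test (11.8% of all genes were higher, 11.4% lower). Tgm1 had 297, 287 and 226 CPM in Rescue at 24 h HCM, against the WT levels of 167 to 184 CPM given above (0.61 ± 0.20, SE). This call was lost without Rescue replicate 1 (0.54) or 2 (0.57) or WT replicate 1 (0.57) or 3 (0.63). Tgm3 had 345, 353 and 257 CPM, 5.01-fold the WT level, and Asprv1 had 910.1, 922 and 622 CPM, 5.51-fold the WT level. The lipid supply genes did not pass the test against WT, with log2 fold changes of 0.60 ± 0.27 for Abca12, 0.21 ± 0.21 for Cers3, -0.20 ± 0.17 for Elovl4 and 0.09 ± 0.26 for Ugcg, and the 95% interval for Ugcg was -0.44 to 0.63.

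At 72 h HCM the Rescue cells differed from PKP4-KO in a direction that depended on the gene. Tgm1 had 74.5, 75.4 and 67.0 CPM and Alox12b had 24.2, 24.5 and 22.3 CPM in Rescue, each of them below every PKP4-KO library. Log2 fold changes against PKP4-KO were -2.72 ± 0.21 for Tgm1, -2.55 ± 0.20 for Tgm3, -2.73 ± 0.18 for Tgm5 and -2.54 ± 0.28 for Alox12b (SE). Abca12, in contrast, had 91.5, 96.4 and 82.1 CPM, above every PKP4-KO and WT library of that time, with 2.14 ± 0.29 against PKP4-KO and 1.11 ± 0.28 against WT. Ugcg (1.32 ± 0.27) and Asprv1 (1.28 ± 0.27) were also higher in Rescue than in PKP4-KO, and Elovl4 did not pass the test (0.36 ± 0.17) but was called higher without TMM factors (1.54, adjusted p = 6.32e-06, edgeR). In this comparison 37.2% of all genes were called higher and 29.5% lower, and their median log2 fold change was 0.20, or 1.37 without TMM factors. Without these factors the 4 lower genes named first were still called lower, whereas Aloxe3 turned from -0.50 to 0.68 (adjusted p = 0.00344, edgeR). Aloxe3 lost its call without any of Rescue replicates 1, 2 and 3 or PKP4-KO replicates 1 and 2 (-0.64 to -0.34), and Cers3 (0.51 ± 0.22) without any of the 6 libraries (0.45 to 0.55). Against WT at 72 h HCM, Tgm3, Abca12, Elovl4 and Asprv1 were higher and Tgm5 and Aloxe3 lower (19.5% and 16.7% of all genes), and without TMM factors Alox12b was called higher as well (0.73).

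In LCM at 72 h all 10 genes were higher in Rescue than in WT, against 17.9% of all genes. Alox12b had 6.57, 4.75 and 6.78 CPM in WT and 134, 184 and 123 CPM in Rescue, 24.4-fold higher. Asprv1 had 225, 132 and 156 CPM in WT and 1548, 2230.0 and 1580.1 CPM in Rescue, 10.4-fold higher, and Cers3 showed the smallest difference (1.05 ± 0.22, SE). Against PKP4-KO in the same medium and time 9 of 10 were higher (23.3% of all genes), and Tgm5 did not pass the test (0.37 ± 0.17) except without TMM factors (0.73). At 24 h LCM 5 genes were higher in Rescue than in WT, Tgm1, Tgm3, Alox12b, Abca12 and Asprv1 (13.5% of all genes), of which Abca12 was not called without TMM factors (0.95). The Rescue libraries also carried RNA of simple epithelium markers. The summed level of these 5 genes, nearly all of it Krt7, was 94.0 to 382 CPM in Rescue and 4.1 to 23.3 in WT and PKP4-KO libraries. The part of this difference in the levels of the 10 genes was not tested.

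The response to calcium was then compared between the cell lines. In WT cells at 24 h, 9 of the 10 genes were higher in HCM than in LCM, from 1.11 (Cers3) to 2.43 (Tgm1) on the log2 scale, while Tgm3 stood at -0.02 ± 0.19 (SE), and 7.69% of all genes were called higher. Without TMM factors 6 of the 9 were called, and Abca12 (1.05, adjusted p = 0.0526), Cers3 (0.84, adjusted p = 0.0683) and Ugcg (0.90, adjusted p = 0.0782) did not pass edgeR's test. Of all 15114 tested genes 2368 were then called, 587 of them higher. In PKP4-KO cells at 24 h, 1 gene was called, Tgm3 at 0.78 ± 0.19, with 1.44% of all genes called higher. That call was lost without TMM factors (0.82) and without PKP4-KO HCM replicate 1 (0.53) or 2 (0.74) or LCM replicate 3 (0.62). The other 9 genes had log2 fold changes of -0.51 to 0.50 in PKP4-KO cells. The difference of the 2 responses was called for 7 genes, all lower in PKP4-KO, when 2.79% of all genes were. It was -2.72 ± 0.43 for Alox12b, -2.06 ± 0.30 for Aloxe3, -1.93 ± 0.29 for Tgm1, -1.87 ± 0.38 for Asprv1, -1.64 ± 0.40 for Abca12, -1.37 ± 0.26 for Tgm5 and -1.29 ± 0.25 for Elovl4 (SE). That of Abca12 was not called without WT 24 h HCM replicate 1 (-1.39), and without TMM factors 4 genes were called. Of all 15114 tested genes 366 were then called, 208 of them higher in PKP4-KO.

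Rescue cells at 24 h responded with 9 of 10 genes higher in HCM (6.0% of all genes), Tgm3 again being the exception at 0.43 ± 0.19, and without TMM factors Abca12 (0.80) and Ugcg (0.94) were not called either. The call for Abca12 was lost without any of HCM replicates 1, 2 and 3 or LCM replicates 1 and 3 (0.65 to 0.92). That for Ugcg was lost without HCM replicate 2 (0.85) or LCM replicate 3 (0.74). The Rescue response was not called different from that of WT cells for any of the 10 genes by edgeR's quasi-likelihood test or by DESeq2. The background was 0.0662% of all genes, and 1 of the 10, Tgm1, had an unadjusted p below 0.05 by edgeR (difference -0.98 ± 0.28, SE). Against PKP4-KO the 24 h response of Rescue was called larger for 4 genes, when 0.992% of all genes were. These were Alox12b (2.07 ± 0.41), Aloxe3 (2.02 ± 0.30), Asprv1 (1.70 ± 0.38) and Tgm5 (1.16 ± 0.26), the last not called without TMM factors (1.11). Without Rescue 24 h HCM replicate 2 the calls for Asprv1 (1.61) and Tgm5 (1.13) were lost, that for Asprv1 also without PKP4-KO 24 h HCM replicate 2 (1.57) or LCM replicate 1 (1.39), and that for Tgm5 also without Rescue HCM replicate 1 (1.02), Rescue LCM replicate 1 (1.06) or PKP4-KO HCM replicate 3 (1.07).

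**Figure D3:**
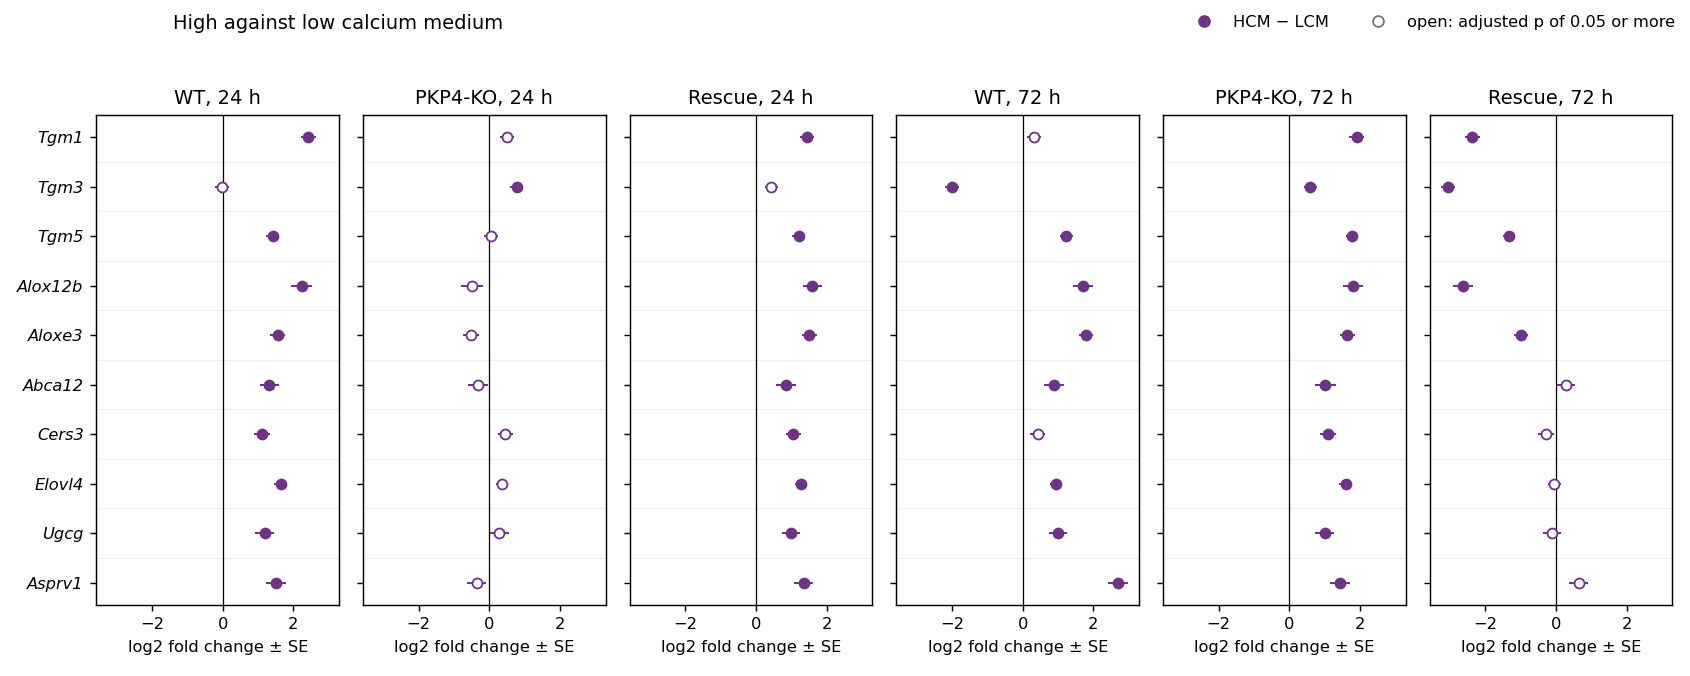
Log2 fold change of the 10 genes in HCM against LCM, by cell line and time, with the standard error of the fit as bars and filled points past an adjusted p of 0.05. At 24 h the points of 9 genes are filled and lie right of 0 in WT and in Rescue, and in PKP4-KO only that of Tgm3 is filled, and at 72 h all 10 are filled and right of 0 in PKP4-KO and 5 are filled and left of 0 in Rescue.

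The order of the cell lines was different at 72 h. PKP4-KO cells had all 10 genes higher in HCM than in LCM, from 0.60 (Tgm3) to 1.90 (Tgm1) on the log2 scale, with 12.9% of all genes called higher. Without TMM factors 6 of these calls were made and Tgm3 stood at -0.092, not called. Of all 15114 tested genes 7929 were then called, 648 of them higher. Without HCM replicate 1 the values of Abca12 (0.77) and Tgm3 (0.49) were not called, nor were Abca12 without LCM replicate 2 (0.73) and Tgm3 without LCM replicate 3 (0.56). WT cells had 7 higher and 1 lower, Tgm3, which had 235, 202 and 238 CPM in LCM and 50.0, 55.8 and 63.6 CPM in HCM (-2.0 ± 0.19, SE), when 10.6% of all genes were higher and 10.8% lower. Without TMM factors Abca12 (0.61), Elovl4 (0.64) and Ugcg (0.74) were not called. Of the 7, Abca12 (0.89 ± 0.28) also lost its call without HCM replicate 1 (0.85) or 2 (0.76) or LCM replicate 1 (0.83) or 3 (0.87). In Rescue cells 5 genes were lower in HCM and none was called higher (12% and 13% of all genes), while without TMM factors Asprv1 was called higher (0.80, adjusted p = 0.00476, edgeR). Tgm3 had 1026, 999.8 and 1085 CPM in LCM and 122, 135 and 117 CPM in HCM, 8.32-fold lower. Alox12b fell from 134, 184 and 123 CPM to 24.2, 24.5 and 22.3 CPM, and Tgm1 from 342, 427 and 349 CPM to 74.5, 75.4 and 67.0 CPM. The lipid supply genes of the same cells did not pass the test between media, with 0.28 ± 0.27 for Abca12, -0.28 ± 0.21 for Cers3, -0.04 ± 0.17 for Elovl4 and -0.11 ± 0.26 for Ugcg.

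The calcium response at 72 h was called smaller in Rescue than in WT for 8 genes (7.77% of all genes) and smaller in Rescue than in PKP4-KO for 8 genes (13.4% of all genes), these 2 counts sharing the Rescue libraries. The largest was Alox12b, at -4.34 ± 0.40 against WT and -4.44 ± 0.39 against PKP4-KO (SE), followed by Tgm1 at -4.27 ± 0.29 against PKP4-KO. Without TMM factors each count was 5. Of all 15114 tested genes 2294 were then called for Rescue minus WT, 1715 of them larger in Rescue. For Rescue minus PKP4-KO it was 7353, 6719 of them larger in Rescue. Between PKP4-KO and WT at 72 h the response differed for 3 genes, with and without TMM factors. It was larger in PKP4-KO for Tgm1 (1.57 ± 0.28) and Tgm3 (2.59 ± 0.27) and smaller for Asprv1 (-1.26 ± 0.38), when 1.85% of all genes were called larger and 3.88% smaller. Without TMM factors 1304 of all 15114 genes were called, 88 of them larger. The call for Asprv1 was lost without any of 7 of the 12 libraries, namely PKP4-KO HCM replicates 2 and 3, PKP4-KO LCM replicates 1 and 2, WT HCM replicate 3 and WT LCM replicates 2 and 3, with values of -1.52 to -0.93 over all libraries left out.

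With time in HCM, PKP4-KO cells gained RNA of all 10 genes from 24 h to 72 h, when 24.3% of all genes were called higher. The gain was largest for Alox12b (5.93 ± 0.34, SE, 61.0-fold), Tgm1 (5.01 ± 0.24), Asprv1 (4.80 ± 0.31) and Tgm5 (4.69 ± 0.20), and smallest for Cers3 (1.08 ± 0.22) and Abca12 (1.29 ± 0.29). Without TMM factors, which moved the median of all genes to -1.16, 7 genes were called, and Cers3 stood at -0.0096, Abca12 at 0.21 and Ugcg at 0.50. Of all 15114 tested genes 10454 were then called, 1315 of them higher. In WT cells Asprv1 (2.90 ± 0.29), Tgm5 (1.08 ± 0.18) and Aloxe3 (0.93 ± 0.20) were higher at 72 h, and Tgm1 (-0.92 ± 0.20) and Cers3 (-0.76 ± 0.21) were lower (9.16% and 8.69% of all genes). The call for Cers3 was lost without WT 72 h HCM replicate 3 (-0.59) or 24 h replicate 1 (-0.64). In Rescue cells Asprv1 was higher (1.76 ± 0.27) and Tgm1 (-1.90 ± 0.21), Tgm3 (-1.35 ± 0.19), Alox12b (-1.08 ± 0.27) and Cers3 (-0.63 ± 0.21) were lower (13.6% and 10.7% of all genes). That of Cers3 was lost without TMM factors (-0.58) and without 72 h replicate 1 (-0.60) or 2 (-0.60) or 24 h replicate 1 (-0.62) or 2 (-0.59).

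Left in LCM, the cells of each line also gained RNA of these genes with time and lost none by the test. The count of genes called higher at 72 h was 6 in WT (5.29% of all genes), 8 in PKP4-KO (12.4%) and 9 in Rescue (6.84%). Without TMM factors Aloxe3 in WT (0.47), Ugcg in PKP4-KO (0.46) and Cers3 in Rescue (0.61) were not called. In WT it was Tgm3 that changed most (1.81 ± 0.19, SE), in PKP4-KO Tgm3 (4.22 ± 0.21) and in Rescue Alox12b (3.15 ± 0.29). The gain of Tgm3 in PKP4-KO went from 29.2, 28.6 and 20.2 CPM to 506, 483 and 461 CPM. Abca12 had 0.69 ± 0.27 in Rescue, -0.05 ± 0.29 in PKP4-KO and 0.04 ± 0.28 in WT. In WT, Alox12b (1.08 ± 0.29) lost its call without 72 h replicate 1 (1.03) or 3 (0.99) or 24 h replicate 3 (0.88), and Aloxe3 (0.69 ± 0.20) without 72 h replicate 3 (0.62) or 24 h replicate 1 (0.70) or 3 (0.54).

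**Figure D4:**
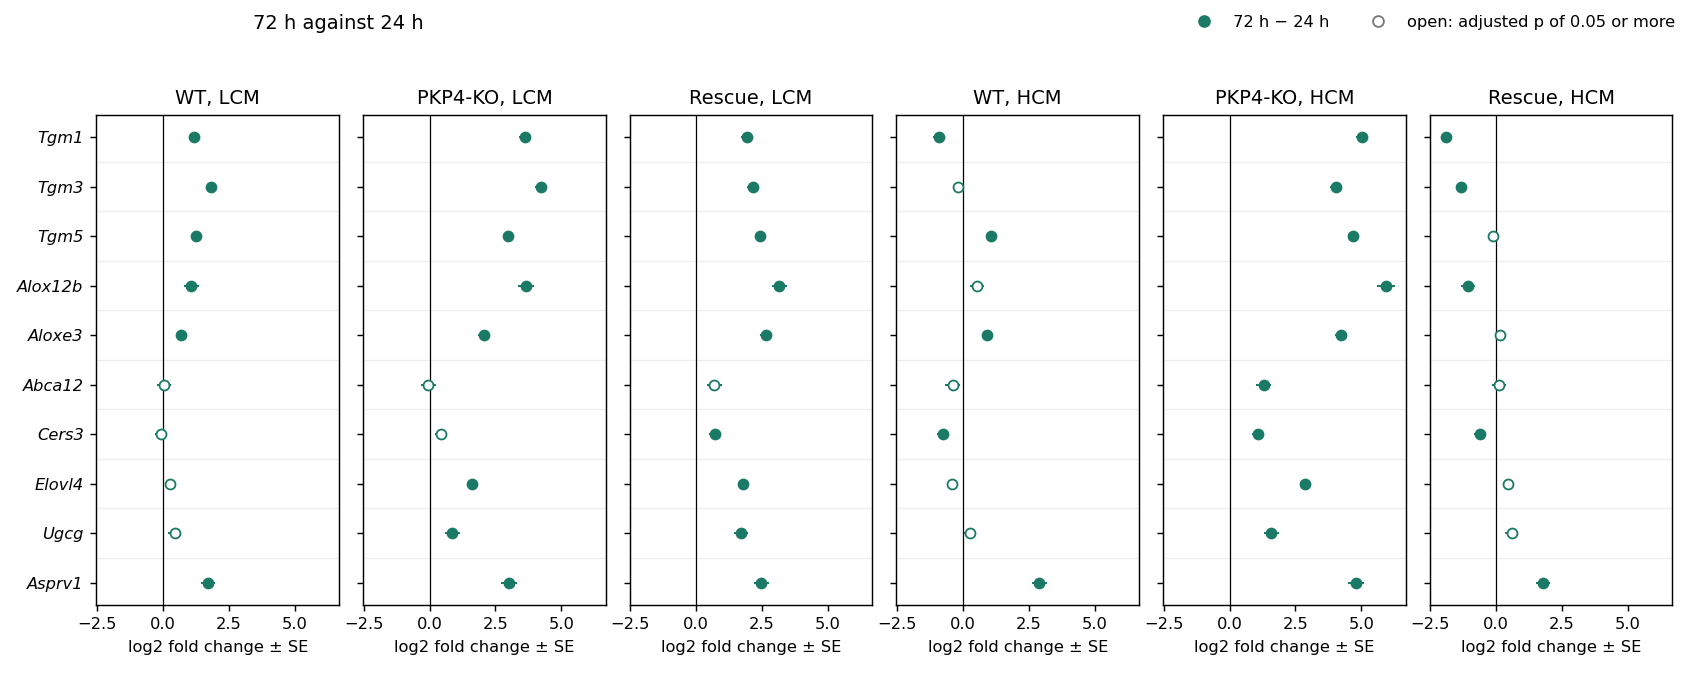
Log2 fold change of the 10 genes from 24 h to 72 h, by cell line and medium, with the standard error of the fit as bars and filled points past an adjusted p of 0.05. In HCM all points lie right of 0 in PKP4-KO, and those of Tgm1 lie left of 0 in WT and Rescue.

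Over the 12 group means, the likeness of the 10 genes is given here as a description, since the groups share libraries' depth and scaling. Pearson's r between log2 levels was 0.914 for Tgm1 and Alox12b, 0.889 for Tgm5 and Alox12b and 0.850 for Tgm3 and Alox12b. It was 0.954 for Elovl4 and Ugcg, 0.932 for Abca12 and Cers3 and 0.917 for Abca12 and Ugcg. Between a transglutaminase or Alox12b and one of these lipid supply genes it ran from 0.292 for Tgm3 and Abca12 to 0.848 for Tgm1 and Elovl4, a range that overlaps with the values among the transglutaminases (0.740 for Tgm3 and Tgm5, 0.828 for Tgm1 and Tgm3). Aloxe3 was nearer to Elovl4 (0.933) than to Alox12b (0.739). The genes outside the list whose 12 means were most like the mean profile of the 10 were Sult2b1 (0.988), Gdpd3 (0.988), Plekhn1 (0.977), Metrnl (0.973) and Fchsd1 (0.971). Sult2b1 encodes the sulphotransferase that makes cholesterol sulphate in the epidermis.

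The rest of the pathway was described with 7 lists of other genes, chosen with earlier results of these data known. Of their 73 genes in the table, 68 were tested. In the 24 h HCM comparison of PKP4-KO with WT 8 were higher and 37 lower, the median difference being -0.68 on the log2 scale. In that comparison 22.2% of all tested genes were lower. By 72 h HCM 19 were higher and 23 lower (21.9% and 29.9% of all genes). At 24 h LCM it was 9 and 28 (19.7% and 20.6%), and at 72 h LCM 22 and 16 (21.3% and 23.8%). Without TMM factors the counts were 7 higher and 34 lower at 24 h HCM and 10 and 39 at 72 h HCM. In LCM they were 7 and 32 at 24 h and 13 and 24 at 72 h. Of all 15114 tested genes, 5742 were then called at 24 h HCM, 3050 of them higher, and 9401 at 72 h HCM, 1268 of them higher. In LCM it was 5273 at 24 h, 1796 of them higher, and 6747 at 72 h, 1733 of them higher. Of all calls at 72 h HCM, 42.2% were higher with TMM factors and 13.5% without. The balance at 72 h thus depended on the scaling, for these genes as for all genes. The steps before and after the lipoxygenases, 10 genes, had 8 lower and 0 higher at 24 h HCM and 3 lower and 5 higher at 72 h HCM, or 4 lower and 2 higher without TMM factors. Cyp4f39, the omega-hydroxylase of ultra-long fatty acids, had a log2 fold change of -3.21 ± 0.20 at 24 h HCM and 1.76 ± 0.19 at 72 h HCM (SE). Its mean at 72 h HCM was 111 ± 17.8 CPM in the PKP4-KO libraries against 32.7 ± 4.41 in those of WT (SD, n = 3). Sdr9c7, a dehydrogenase of the same chain, went from -2.50 ± 0.30 to 0.86 ± 0.26, the latter not called without TMM factors (0.076), whereas Slc27a4, a fatty acid transport protein, was lower at each time (-2.21 ± 0.12 and -1.49 ± 0.12), as was Acsl5 (-0.89 ± 0.10 and -1.14 ± 0.10).

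Of 18 tested genes of ceramide, glucosylceramide and sphingomyelin metabolism, 10 were lower and 1 higher at 24 h HCM, and 8 lower and 3 higher at 72 h HCM (12 and 2 without TMM factors). Cers6, another ceramide synthase, was lower at each time (-1.57 ± 0.31 and -3.02 ± 0.36, SE), and Acer2, a ceramidase of the Golgi, was higher (2.29 ± 0.32 and 2.73 ± 0.34). Smpd1, the acid sphingomyelinase, went from -0.90 ± 0.16 to 1.26 ± 0.16, and Sgms1, a sphingomyelin synthase, stayed lower (-1.97 ± 0.28 and -1.12 ± 0.28). Fatty acid elongation had 3 lower and 2 higher of 9 at 24 h HCM, and 0 lower and 2 higher at 72 h HCM, the 2 being Elovl7 (1.1 ± 0.16) and Elovl1 (0.63 ± 0.25). Without TMM factors 1 was lower and 1 higher at 24 h HCM, and at 72 h HCM 6 were lower and 0 higher, with Elovl7 at 0.31 and Elovl1 at -0.072, neither called. Of 7 genes of lamellar bodies and cholesterol sulphate, 4 were lower and 0 higher at 24 h HCM and 2 lower and 3 higher at 72 h HCM, or 4 lower and 0 higher without TMM factors. Sult2b1 moved from -3.91 ± 0.20 to 0.95 ± 0.18 and Rab11a from -0.90 ± 0.13 to 0.69 ± 0.13, neither called at 72 h without TMM factors (0.17 and -0.081), whereas the transporters Abca2 (-1.88 ± 0.25 at 72 h HCM) and Abcg1 (-1.79 ± 0.15) were lower at each time.

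The proteins that transglutaminases cross-link gave 7 lower and 2 higher of 11 tested genes at 24 h HCM, and 4 lower and 3 higher at 72 h HCM (5 and 3 without TMM factors). The higher genes at 24 h HCM were Krt1 (log2 fold change 4.02) and Krt10 (1.09), which were also higher at 24 h LCM (5.03 and 1.63). The higher genes at 72 h HCM were Krt1 (6.56 ± 0.59, SE), Krt10 (3.06 ± 0.41) and Flg, the filaggrin gene (3.62 ± 0.72). Flg did not pass the test at 24 h HCM (1.56). Krt1 had a mean of 3752 ± 101 CPM in the PKP4-KO libraries at 72 h HCM against 39.7 ± 3.60 in those of WT (SD, n = 3). Ivl, encoding involucrin, was lower at each time (-3.63 ± 0.30 and -2.83 ± 0.29), so that a main substrate of Tgm1 stood low in PKP4-KO when Tgm1 itself stood high. The 3 other transglutaminases tested had 2 higher at 24 h HCM and 1 at 72 h HCM, and none lower. Of 12 genes listed for filaggrin processing, 6 were lower and 1 higher at 24 h HCM, and 6 lower and 3 higher at 72 h HCM (9 and 2 without TMM factors). At 72 h HCM the kallikrein gene Klk5 (3.66 ± 0.36) and the caspase gene Casp14 (1.67) were higher. The prostasin gene Prss8 (-2.19 ± 0.41) and the deiminase gene Padi4 (-4.00 ± 0.36) were lower. Of all tested genes 42.8% were called at 24 h HCM, 22.2% of all as lower. At 72 h HCM 51.8% were called, 21.9% of all as higher and 29.9% as lower. The lists were not tested as sets, so none is called apart from other genes.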

How the data were processed

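RNA was sequenced as strand-specific poly(A) libraries from mouse keratinocytes, 3 in each of 12 groups. Per the paper's methods and the submitters' processing notes, the authors aligned reads with HISAT2 2.1.0 to mm39 extended by the sequence of GFP-PKP4, used SAMtools 1.10 and counted reads per Ensembl gene with featureCounts 2.0.0. The deposited values are raw read counts per gene. The strand and multi-mapping settings of the counting were not given in the sources used here, so reads of overlapping genes may be split or lost.

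The counts were tested with edgeR 4.0.16 (limma 3.58.1, R 4.3.3). Genes passing filterByExpr (15114) were scaled by TMM and fitted with the quasi-likelihood test over all 36 libraries with 1 mean per group, and p-values were adjusted over all tested genes by the Benjamini-Hochberg method, with a threshold of 0.05. Levels are CPM, the deposited counts scaled to the TMM-adjusted library size. Summaries and figures used Python 3.11.15, pandas 2.3.3 and scipy 1.17.1. The code of the fit was tested on simulated counts with less spread than these data and seeded changes in a single group. That test does not show how the fit performs on these data. Alternatives were DESeq2 1.42.0, no TMM factors, other filters, only the groups compared, the replicate number as a block, and each library left out. The pathway lists were counted without TMM factors as an alternative chosen after seeing the data. Same-numbered libraries deviated together in every pair, with a correlation over genes above 0.1, for HCM against LCM in WT at 24 h (0.348 to 0.483) and Rescue against PKP4-KO at 72 h LCM (0.300 to 0.718). The labels name no shared batch. The 10 genes and all gene lists were chosen with earlier results of these data known. The genes named were these 10, up to 4 genes of each pathway list with the largest absolute change among those called between PKP4-KO and WT in HCM at 72 h with a mean of at least 1 CPM, the 5 other genes most correlated with the 10 over the group means, and Pkp4 and cell type markers as checks. Promoter sequences came from RefSeq on GRCm38.p6. The series calls the replicates biological, but no source used here says whether they came from separate cultures. The p-values therefore measure only the spread between these libraries, which may be technical.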

Additional observations from a re-analysis of the deposited data

Results flagged for a closer look

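Each value in this paragraph is a difference between 2 effects under the same contrast that passed edgeR's quasi-likelihood test of the difference itself (an interaction term, adjusted p below 0.05 over all tested genes), in log2 units. For the PKP4-KO against WT log2 fold change at 72 h minus that at 24 h in HCM it was 5.93 for Tgm1, 5.38 for Alox12b, 4.21 for Tgm3, 3.61 for Tgm5, 3.28 for Aloxe3, 3.27 for Elovl4, 1.90 for Asprv1, 1.84 for Cers3, 1.68 for Abca12 and 1.32 for Ugcg. The same difference in LCM was 2.57 for Alox12b, 2.43 for Tgm1, 2.41 for Tgm3, 1.71 for Tgm5, 1.37 for Aloxe3, 1.33 for Elovl4 and 1.30 for Asprv1, the last not called without any of 8 of the 12 libraries, namely PKP4-KO 72 h replicates 1 and 2, PKP4-KO 24 h replicates 2 and 3, WT 72 h replicates 2 and 3 and WT 24 h replicates 2 and 3 (1.13 to 1.62 over all left out).

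The response to calcium (HCM minus LCM) in PKP4-KO minus that in WT at 24 h was -2.72 for Alox12b, -2.06 for Aloxe3, -1.93 for Tgm1, -1.87 for Asprv1, -1.64 for Abca12, -1.37 for Tgm5 and -1.29 for Elovl4. At 72 h it was 1.57 for Tgm1, 2.59 for Tgm3 and -1.26 for Asprv1. The response in Rescue minus that in PKP4-KO at 24 h was 2.07 for Alox12b, 2.02 for Aloxe3, 1.70 for Asprv1 and 1.16 for Tgm5. At 72 h it was -4.44 for Alox12b, -4.27 for Tgm1, -3.65 for Tgm3, -3.10 for Tgm5, -2.62 for Aloxe3, -1.63 for Elovl4, -1.38 for Cers3 and -1.11 for Ugcg. The response in Rescue minus that in WT at 72 h was -4.34 for Alox12b, -2.77 for Aloxe3, -2.70 for Tgm1, -2.56 for Tgm5, -2.06 for Asprv1, -1.11 for Ugcg, -1.06 for Tgm3 and -0.98 for Elovl4. Ugcg lost its call at 72 h without any of Rescue HCM replicates 1 and 2, Rescue LCM replicate 1, PKP4-KO HCM replicate 2 and PKP4-KO LCM replicate 3 in the comparison with PKP4-KO (-1.28 to -0.86), and without any of Rescue HCM replicates 1 and 2, Rescue LCM replicate 1, WT HCM replicates 1 and 2 and WT LCM replicates 1 and 2 in that with WT (-1.34 to -0.86).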

How the results depend on the processing

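Of the called log2 fold changes of single genes, 228 kept direction and side of the threshold with DESeq2, 229 with at least 10 counts in every library, 225 with no filter on low counts, 214 with only the groups of the comparison in the fit and 192 without TMM factors, and 3 of them changed sign in the last. Without TMM factors the number of the 10 genes called, with that of all 15114 tested genes in brackets, was as follows. For HCM against LCM it was 0 (237) in PKP4-KO at 24 h, 5 (3845) in WT at 72 h and 6 (7929) in PKP4-KO at 72 h. For the calcium response it was 4 (366) in PKP4-KO minus WT at 24 h. At 72 h it was 5 (2294) in Rescue minus WT and 5 (7353) in Rescue minus PKP4-KO. With only the groups of the comparison the number of the 10 genes called was 0 for HCM against LCM in PKP4-KO at 24 h. It was 2 for 72 h against 24 h in WT HCM and 2 for the calcium response of Rescue minus PKP4-KO at 24 h. The numbers of all genes called in these fits are given below. Leaving out single libraries gave 0 to 1 genes for HCM against LCM in PKP4-KO at 24 h, 0 without HCM replicate 1 or 2 or LCM replicate 3, and 2 to 5 for the response of Rescue minus PKP4-KO at 24 h, 2 without Rescue HCM replicate 2.

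Signs changed without TMM factors for PKP4-KO against WT in HCM at 72 h for Elovl4 (-0.48) and Asprv1 (-0.66) and at 24 h LCM for Alox12b (-0.10) and Asprv1 (-0.26), in Rescue at 72 h HCM for Tgm1 against WT (0.085) and Aloxe3 against PKP4-KO (0.68), in HCM against LCM at 72 h for Tgm1 in WT (-0.024), Tgm3 in PKP4-KO (-0.092) and Elovl4 in Rescue (0.062), and in 72 h against 24 h for Cers3 in PKP4-KO HCM (-0.0096) and Abca12 in WT LCM (-0.18). They changed with at least 10 counts in every library for Asprv1 in PKP4-KO against WT at 24 h LCM (-0.034) and Elovl4 in HCM against LCM in Rescue at 72 h (0.0069), with only the groups of the comparison for Tgm3 in HCM against LCM in WT at 24 h (0.016), and with both for Abca12 in 72 h against 24 h in PKP4-KO LCM (0.024 and 0.017). With single libraries left out, uncalled values of the comparisons of 2 groups crossed 0 for Asprv1 between PKP4-KO and WT in HCM at 72 h (-0.12 to 0.38) and 24 h LCM (-0.31 to 0.18), Alox12b at 24 h LCM (-0.058 to 0.29), Ugcg in Rescue against WT at 24 h HCM (-0.043 to 0.30), and in HCM against LCM for Tgm3 in WT at 24 h (-0.084 to 0.082), Tgm5 in PKP4-KO at 24 h (-0.11 to 0.14), and Elovl4 (-0.17 to 0.13) and Ugcg (-0.28 to 0.14) in Rescue at 72 h, and for Abca12 in 72 h against 24 h in WT LCM (-0.034 to 0.12) and PKP4-KO LCM (-0.25 to 0.24), Cers3 in WT LCM (-0.14 to 0.0089) and Aloxe3 (-0.0095 to 0.26) and Tgm5 (-0.28 to 0.0080) in Rescue HCM. The cause was not tested. Single calls lost without 1 library and not named above were Ugcg at 72 h against 24 h in PKP4-KO LCM (0.69 without 72 h replicate 1, 0.68 without 24 h replicate 1) and Cers3 in Rescue LCM (0.54 and 0.68 without 72 h replicates 1 and 3, 0.50 without 24 h replicate 3).

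The fit with the replicate number as a block kept every called log2 fold change of the 10 genes and their direction, while the uncalled value of Asprv1 in PKP4-KO against WT at 24 h LCM moved to -0.017. That block was shared by all 12 groups, and the 2 comparisons with correlated pairs were not fitted with pairs of their own. Outside these 2, the correlation of same-numbered libraries did not exceed 0.1 in every pair. It was still positive in every pair for HCM against LCM in Rescue at 24 h (0.0492 to 0.292) and in PKP4-KO at 72 h (0.0258 to 0.139), and for Rescue against PKP4-KO at 24 h HCM (0.0964 to 0.304).

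Over all tested genes the number called changed by more than 1.5 times as follows. With only the groups of the comparison it was 3708 instead of 6278 for Rescue against PKP4-KO at 72 h LCM, 1375 instead of 2143 for HCM against LCM in WT at 24 h, and 10 instead of 428 in PKP4-KO at 24 h. For 72 h against 24 h it was 716 instead of 2697 in WT HCM, 2284 instead of 1505 in WT LCM, 1710 instead of 3952 in PKP4-KO LCM, 5876 instead of 3676 in Rescue HCM and 738 instead of 1482 in Rescue LCM. For the calcium response it was 255 instead of 607 and 459 instead of 867 (PKP4-KO minus WT, 24 h and 72 h), 0 instead of 10 (Rescue minus WT, 24 h) and 56 instead of 213 (Rescue minus PKP4-KO, 24 h), and it was 439 instead of 794 for the time difference in LCM. DESeq2 gave 736 for HCM against LCM in PKP4-KO at 24 h, and 49 and 389 for the responses of Rescue minus WT and minus PKP4-KO at 24 h. Without TMM factors it was 237 and 7929 (from 4924) for HCM against LCM in PKP4-KO at 24 h and 72 h, 366 and 1304 for the response of PKP4-KO minus WT at 24 h and 72 h, 108 and 7353 (from 4765) for Rescue minus PKP4-KO, and 7328 (from 4018) for the time difference in HCM. With no filter it was 227 for HCM against LCM in PKP4-KO at 24 h, 1203 (from 1808) in Rescue at 24 h, 349 and 503 for PKP4-KO minus WT, 5 for Rescue minus WT at 24 h, 132 for Rescue minus PKP4-KO at 24 h and 516 for the time difference in LCM.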
